A study of Homo sapiens with 6 samples.

Results

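The genes described here are 10 members of the machinery that governs passage through the G1 phase of the cell cycle, chosen by name from the 56303 gene entries of an RNA sequencing count table. They are the D-type cyclins CCND1, CCND2 and CCND3, their kinases CDK4 and CDK6, the cyclins CCNG1 and CCNG2, and the kinase inhibitors CDKN1B, CDKN1C and CDKN2C. All 10 were found. The study compared AGS cells transfected with an siRNA against SRSF2 (siSRSF2, 3 libraries) with AGS cells labelled WT (3 libraries). AGS is an established human gastric cancer cell line, and SRSF2 encodes a splicing factor of the serine/arginine-rich family. The labels give neither the time after transfection nor the siRNA used, nor do they say whether WT cells received a control siRNA. Replicates are not stated to come from different cultures, and the tests then weigh group differences only against variation among these libraries, which may be technical.

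D-type cyclins are made in response to growth signals and bind CDK4 or CDK6. These complexes phosphorylate the retinoblastoma protein RB, which releases E2F transcription factors and allows entry into S phase. Inhibitors of the INK4 family, such as CDKN2C, bind CDK4 and CDK6 and keep cyclin D away, whereas those of the CIP/KIP family, such as CDKN1B and CDKN1C, bind assembled cyclin and kinase complexes. Cyclin G2 differs from the other cyclins in that it is known to be high in cells that leave the cycle, and cyclin G1 is a known transcriptional target of p53.

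Total counts ranged from 26610937 to 36651623 in siSRSF2 libraries and from 47518943 to 50021152 in WT libraries, and levels are given as CPM, counts relative to the TMM-scaled library total. SRSF2 itself had 21.6, 21.8 and 24.9 CPM in siSRSF2 libraries, against 44.5, 46.4 and 44.1 CPM in WT libraries (log2 fold change -0.98, SE 0.064, edgeR adjusted p = 4.39e-13), and shares 36.7% of its exon length with MFSD11 on the opposite strand. All 7 epithelial markers examined averaged at least 1 CPM and together held 3746 to 4006 CPM in siSRSF2 libraries and 4137 to 4557 CPM in WT libraries. Of 5 fibroblast markers, 3 averaged at least 1 CPM, with COL1A1 the highest, and their sum was 42.8 to 47.3 CPM in siSRSF2 libraries and 19.8 to 20.1 CPM in WT libraries. The 5 leukocyte markers, of which 2 averaged at least 1 CPM and CD68 was the highest, summed to 33.9 to 37.9 CPM in siSRSF2 libraries and 24.6 to 26.7 CPM in WT libraries. The 3 endothelial markers summed to 0.96 to 1.96 CPM in siSRSF2 libraries and 3.01 to 3.24 CPM in WT libraries. No marker was at 0 in every library. The part of these markers in the results was not tested.

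Of the 10 genes, 9 differed between the groups in every analysis run, while the call of CCND2 was lost in 7 of 13 alternatives (DESeq2 adjusted p = 0.115). In siSRSF2 cells the main D-type cyclin, CCND1, its sister CCND3 and both kinases were lower, while both G-type cyclins, all 3 inhibitors and the barely expressed CCND2 were higher. Thus 6 genes rose and 4 fell by edgeR's quasi-likelihood test (adjusted p of 0.05 over 23689 genes), where 59.1% of all genes tested passed, 30.1% as higher and 29% as lower. Changes over 2-fold were found in 8 of the 10, namely 5 rises and 3 falls, against 19.3% of all genes, 13.4% as rises and 5.91% as falls. The 10 genes were chosen with earlier results of these data known, so these counts describe them and test nothing about the set. The 3 siSRSF2 libraries lay wholly above or below the 3 WT libraries for each of the 10, as they did for 63.8% of all genes tested. The largest changes were a 18.6-fold rise of CCNG2, a 9.81-fold rise of CDKN1C and a 4.76-fold fall of CCND1. CCND2 passed the low-count filter only through the siSRSF2 libraries (1 of 3 WT libraries reached the filter's level of 0.238 CPM), so its call is no evidence about the set. Without it, 5 of 9 genes rose and 4 fell, and 7 of the 9 changed over 2-fold, 4 of them upward. In bulk RNA, a shift in the share of cells in one phase and a change of RNA per cell cannot be told apart.

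**Figure D1:**
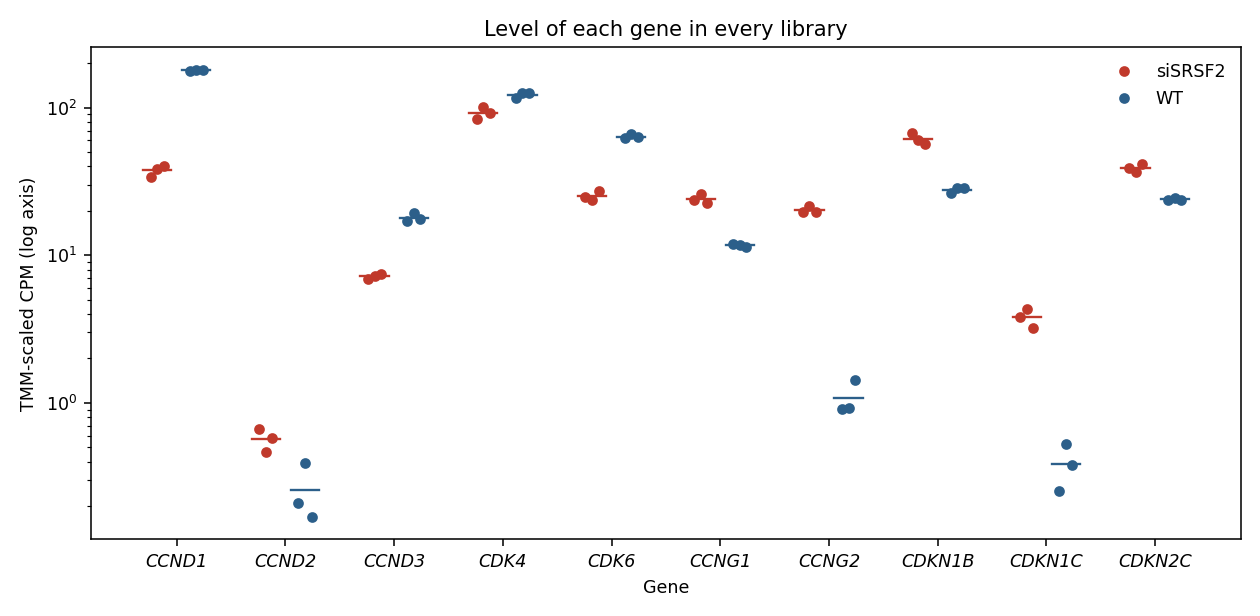
TMM-scaled CPM (log axis) of the 10 genes, with a point per library, siSRSF2 libraries left of WT libraries in each pair, and a line at the mean of 3. The groups do not overlap for any gene, as for 63.8% of all genes tested, and CCND1 averages 37.5 CPM in siSRSF2 libraries and 179 CPM in WT libraries. CCND2 had 18 reads in both siSRSF2 replicate 2 and WT replicate 2, which differ only after scaling (0.467 and 0.394 CPM).

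**Figure D2:**
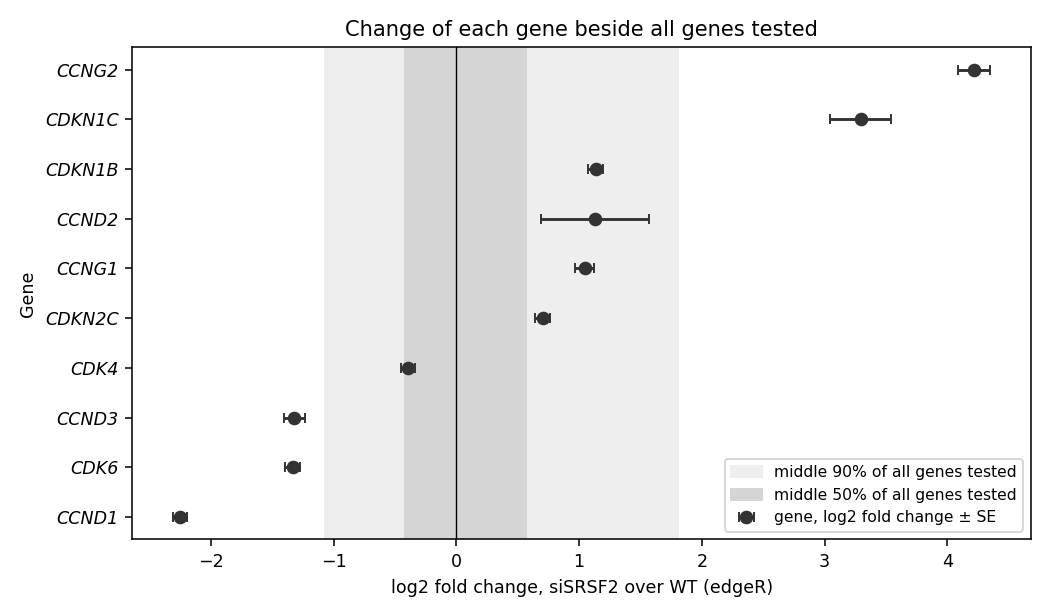
Log2 fold change (siSRSF2 over WT) with its SE from edgeR for the 10 genes, over bands that hold the middle 50% and middle 90% of the 23689 genes tested. CCNG2 and CDKN1C lie above and CCND1, CDK6 and CCND3 below the wider band, which spans -1.07 to 1.80.

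Promoter windows, the 250 bases before the transcription start given by RefSeq (GRCh38.p14), were found for 7 of the 10 genes in 13 entries, and not for CCND1, CCND2 and CDKN1C. The windows of a kinase that fell (CDK4), the cyclin that rose most (CCNG2) and an inhibitor that rose (CDKN1B) are shown because each has 1 start in that table. Capitals mark the E-box CACGTG, the core bound by MYC and related factors, and the CCAAT box (CCAAT or its complement ATTGG), the core bound by the factor NF-Y. The CDK4 window is chr12:57752311-57752560 (minus strand), the CCNG2 window chr4:77156957-77157206 and the CDKN1B window chr12:12717118-12717367 (both plus strand), all written 5′ to 3′ along the gene.
CDK4: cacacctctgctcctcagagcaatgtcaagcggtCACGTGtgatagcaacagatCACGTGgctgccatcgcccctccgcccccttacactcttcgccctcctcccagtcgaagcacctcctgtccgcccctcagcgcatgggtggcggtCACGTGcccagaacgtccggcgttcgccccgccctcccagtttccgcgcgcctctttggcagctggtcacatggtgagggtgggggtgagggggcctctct
CCNG2: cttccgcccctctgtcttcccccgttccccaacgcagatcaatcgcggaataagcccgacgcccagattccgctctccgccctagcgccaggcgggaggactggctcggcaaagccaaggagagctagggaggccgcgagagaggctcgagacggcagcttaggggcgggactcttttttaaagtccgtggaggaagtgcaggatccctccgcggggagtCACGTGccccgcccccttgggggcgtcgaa
CDKN1B: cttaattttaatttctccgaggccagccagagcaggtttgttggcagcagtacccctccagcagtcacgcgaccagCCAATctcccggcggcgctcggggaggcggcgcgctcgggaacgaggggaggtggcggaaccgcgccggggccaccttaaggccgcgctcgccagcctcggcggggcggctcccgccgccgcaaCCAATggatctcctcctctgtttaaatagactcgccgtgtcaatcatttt
The E-box is its own complement. It occurs 3 times in the CDK4 window, beginning 216, 196 and 101 bases before the start, and once in the CCNG2 window, beginning 30 bases before the start. At least 1 E-box is held by 6.345% of the 35116 promoter windows of this length, and 3 or more by 0.0797% (28 windows). Among the other windows it is in 2 of the 3 of CDKN2C, which rose, beginning 220 and 69 bases before the start. It is in none of CCND3 and CDK6, which fell, and none of CCNG1 and CDKN1B, which rose. CDKN1B carries 2 CCAAT boxes, and 32.0% of all windows carry at least 1. Each of the 2 CCNG1 windows, which overlap, holds 4 CCAAT boxes. The forkhead core GTAAACA, bound by FOXO factors, was searched on both strands and is in none of the 13 windows, as against 2.979% of all windows. Neither the CRE TGACGTCA nor the AP-1 core TGANTCA is in any of them, and the E2F core TTCCCGC is in 1 of the 3 CDKN2C windows, where it occurs 2 times. A match describes the letters in the window and is no site of binding, and a missing match says nothing about the factor.

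CCND1 encodes cyclin D1, the most abundant D-type cyclin mRNA here, at 34.0, 38.6 and 40.1 CPM in siSRSF2 libraries, against 177, 179.9 and 181 CPM in WT libraries. The lowest WT library held over 4 times the CPM of the highest siSRSF2 library. The mean was 37.5 ± 3.15 CPM in siSRSF2 and 179 ± 1.92 CPM in WT (SD, n = 3 each), a log2 fold change of -2.25 (SE 0.055, edgeR adjusted p = 1.56e-21). Of the 23689 genes tested, 77 (0.325%) had a lower log2 fold change. The gene lies on chromosome 11 at 69641087 to 69654474 (plus strand, GRCh38 positions in the count table, 5 merged exons of 4830 bases). Of these bases, 497 (10.3%) are also exon of ORAOV1 on the opposite strand. ORAOV1 fell by less, at 31.0 ± 1.15 CPM in siSRSF2 and 48.3 ± 2.16 CPM in WT (log2 fold change -0.64, edgeR adjusted p = 3.45e-10), and without a stated strand setting the reads of the shared stretch cannot be told apart.

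CCND3, the cyclin D3 gene (chromosome 6, 41934933 to 42050357, minus strand), fell with CCND1 but from a far lower level. It had 6.92, 7.24 and 7.45 CPM in siSRSF2 libraries, against 17.0, 19.3 and 17.7 CPM in WT libraries. This 2.49-fold fall (log2 fold change -1.32, SE 0.089, edgeR adjusted p = 9.05e-13) was exceeded by 588 genes. CCND2, the cyclin D2 gene (chromosome 12, 4273772 to 4305350, plus strand), was close to undetected, with 18, 18 and 20 reads in siSRSF2 libraries and 10, 18 and 8 reads in WT libraries. These reads amount to 0.663, 0.467 and 0.577 CPM in siSRSF2 libraries and 0.210, 0.394 and 0.169 CPM in WT libraries, where 3 reads in a library correspond to between 0.06 and 0.113 CPM before TMM scaling (counting error only). Its log2 fold change of 1.13 (SE 0.44, edgeR adjusted p = 0.0299) passed in 6 of 13 alternative analyses. It did not pass with DESeq2 (adjusted p = 0.115), nor without siSRSF2 replicate 1 (edgeR adjusted p = 0.0997), siSRSF2 replicate 3 (0.0726), WT replicate 1 (0.0993) or WT replicate 3 (0.126).

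Levels of different genes are compared per length, as CPM per kilobase of merged exon. On this scale the D-type cyclins together held 8.33, 9.30 and 9.66 CPM per kb in siSRSF2 libraries, against 39.6, 40.6 and 40.5 CPM per kb in WT libraries, a 4.43-fold fall of the summed level. CCND1 made up 84.6%, 85.9% and 85.9% of that sum in siSRSF2 libraries and 92.5%, 91.7% and 92.4% in WT libraries. CCND3 made up 13.7% ± 0.563 in siSRSF2 and 7.71% ± 0.425 in WT (SD, n = 3 each), although its own level fell. CCND2 made up 0.883% ± 0.209 in siSRSF2 and 0.0892% ± 0.0408 in WT. The CCND2 share rests on 8 to 20 reads in a library and on a sum that itself fell 4.43-fold. The log2 ratio of CCND1 to CCND3 counts, which does not depend on how libraries are scaled, averaged 2.38 ± 0.072 in siSRSF2 and 3.32 ± 0.086 in WT (SD, n = 3 each), a difference of -0.94 (SE 0.065). The two-sided exact permutation test over libraries returned p = 0.1, which is the lowest value possible with 3 libraries in each group, and 0.1 after Benjamini-Hochberg adjustment over the 7 ratios examined.

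CDK4 and CDK6 encode the 2 kinases that D-type cyclins activate. CDK6 (chromosome 7, 92604921 to 92836594, minus strand) had 24.9, 23.7 and 27.2 CPM in siSRSF2 libraries, against 62.2, 65.9 and 62.9 CPM in WT libraries. This 2.52-fold fall (log2 fold change -1.33, SE 0.060, edgeR adjusted p = 2.45e-16) was of about the size of that of CCND3. CDK4 (chromosome 12, 57747727 to 57756013, minus strand) whose window above holds 3 E-boxes, fell much less, with 84.3, 102 and 92.1 CPM in siSRSF2 libraries, against 115, 125 and 126 CPM in WT libraries. Its groups were separate but spread more widely, at 92.7 ± 8.73 CPM in siSRSF2 and 122 ± 5.68 CPM in WT (SD, n = 3 each; log2 fold change -0.39, SE 0.058, edgeR adjusted p = 3.2e-06). With scaling by library totals alone, which raised the median log2 fold change of all genes by 0.13, the value for CDK4 was -0.26 (edgeR adjusted p = 0.00117). Of the 3168 exon bases of CDK4, 1369 (43.2%) are also exon of TSPAN31 on the opposite strand. TSPAN31 had 44.9 ± 6.49 CPM in siSRSF2 and 57.1 ± 2.92 CPM in WT (log2 fold change -0.34, edgeR adjusted p = 0.00244), so the values of these overlapping genes are not shown to be separate measurements.

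Per length, CDK4 was the more abundant of the kinases in both groups. It made up 93.4% ± 0.821 of the summed per-length level of both in siSRSF2 and 88.1% ± 0.393 in WT (SD, n = 3 each). By counts, not per length, CDK4 made up 78.5% ± 2.27 in siSRSF2 and 65.7% ± 0.847 in WT. The log2 ratio of CDK6 to CDK4 counts averaged -1.87 ± 0.20 in siSRSF2 and -0.94 ± 0.054 in WT (SD, n = 3 each), a difference of -0.94 (SE 0.12, exact permutation p = 0.1, two-sided). The summed per-length level of both kinases was 31.3 ± 2.70 CPM per kb in siSRSF2 and 43.7 ± 1.89 CPM per kb in WT, a smaller change than the 4.43-fold fall of the summed cyclin level.

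CCNG2 encodes cyclin G2, an atypical cyclin with no established kinase partner of the CDK4 kind, which slows the cycle when overexpressed. It lies on chromosome 4 at 77157151 to 77433388 (plus strand, 17 merged exons of 7481 bases), and no other gene of the table shares its exon positions. Its reads numbered 531, 831 and 677 in siSRSF2 libraries, against 43, 42 and 68 in WT libraries, which had the larger totals. That is 19.5, 21.6 and 19.5 CPM in siSRSF2 libraries, against 0.902, 0.919 and 1.43 CPM in WT libraries. On the log2 scale CCNG2 rose by 4.22 (SE 0.13, edgeR adjusted p = 2.42e-19), and 64 of the genes tested (0.27%) rose further. CCNG1, the cyclin G1 gene (chromosome 5, 163437569 to 163446151, plus strand), rose 2.07-fold, with 23.6, 26.0 and 22.7 CPM in siSRSF2 libraries, against 12.0, 11.8 and 11.3 CPM in WT libraries (log2 fold change 1.05, SE 0.077, edgeR adjusted p = 5.24e-12). Here too no siSRSF2 library came near a WT library.

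Per length, CCNG2 supplied 25.5%, 25.6% and 26.3% of cyclin G mRNA in siSRSF2 libraries, against 3.02%, 3.14% and 4.99% in WT libraries. The summed per-length level of both genes was 10.5 ± 0.706 CPM per kb in siSRSF2 and 3.92 ± 0.0756 CPM per kb in WT (SD, n = 3 each). The log2 ratio of CCNG2 to CCNG1 counts averaged -0.25 ± 0.034 in siSRSF2 and -3.45 ± 0.42 in WT, a difference of 3.20 (SE 0.24, exact permutation p = 0.1, two-sided).

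Each of the 3 inhibitor genes rose. CDKN1B encodes p27, the CIP/KIP inhibitor best known for holding quiescent cells in G1 (chromosome 12, 12715058 to 12722371, plus strand). It had 66.9, 60.3 and 56.6 CPM in siSRSF2 libraries, against 26.4, 28.4 and 28.8 CPM in WT libraries, a 2.20-fold rise (log2 fold change 1.13, SE 0.062, edgeR adjusted p = 1.53e-14). CDKN1C encodes p57, an imprinted CIP/KIP inhibitor (chromosome 11, 2883213 to 2885881, minus strand). It had 3.83, 4.31 and 3.23 CPM in siSRSF2 libraries, against 0.252, 0.525 and 0.379 CPM in WT libraries, where 12, 24 and 18 reads were counted. On the log2 scale CDKN1C rose by 3.29 (SE 0.25, edgeR adjusted p = 8.3e-12), and 200 genes (0.844%) rose further. Its WT level rests on few reads, and leaving out 1 library at a time gave log2 fold changes between 3.06 and 3.57.

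CDKN2C encodes p18, an INK4 inhibitor of CDK4 and CDK6 (chromosome 1, 50960745 to 50974633, plus strand). It had 38.8, 36.7 and 41.4 CPM in siSRSF2 libraries, against 23.6, 24.5 and 23.6 CPM in WT libraries. This was the smallest of the rises, 1.63-fold (log2 fold change 0.70, SE 0.062, edgeR adjusted p = 2.13e-10), and 20.6% of the genes tested had a higher log2 fold change. No other gene of the table shares exon positions with any of the 3 inhibitors. The log2 ratio of CDKN2C to CDKN1B counts was -0.65 ± 0.18 in siSRSF2 and -0.22 ± 0.060 in WT (difference -0.43, SE 0.11), and that of CDKN1C to CDKN1B was -4.02 ± 0.18 in siSRSF2 and -6.20 ± 0.46 in WT (difference 2.18, SE 0.29; exact permutation p = 0.1 for each, two-sided, n = 3 each). Per length CDKN1B remained the main inhibitor mRNA of the 3, at 62.2% ± 2.53 of their sum in siSRSF2 and 57.4% ± 0.968 in WT, and CDKN1C made up 4.19% ± 0.612 in siSRSF2 and 0.858% ± 0.281 in WT.

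The order of the genes by level differed between the groups. In siSRSF2 cells CDK4 was highest per length (29.3 ± 2.75 CPM per kb), followed by CDKN1B (21.8 ± 1.86), CDKN2C (11.7 ± 0.715), CCNG1 (7.78 ± 0.555), CCND1 (7.77 ± 0.652), CCNG2 (2.70 ± 0.156), CDK6 (2.06 ± 0.149), CDKN1C (1.47 ± 0.208), CCND3 (1.24 ± 0.0458) and CCND2 (0.0795 ± 0.0137). The neighbours CCNG1 and CCND1, and CDKN1C and CCND3, overlapped between libraries and have no order. In WT cells CDK4 (38.5 ± 1.79 CPM per kb) and CCND1 (37.1 ± 0.397) overlapped at the top, followed by CDKN1B (9.91 ± 0.447), CDKN2C (7.21 ± 0.163), CDK6 (5.19 ± 0.158), CCNG1 (3.77 ± 0.113), CCND3 (3.10 ± 0.205), CDKN1C (0.149 ± 0.0529), CCNG2 (0.145 ± 0.0403) and CCND2 (0.0360 ± 0.0168). CDKN1C and CCNG2 overlapped there. CCND1 thus lay below CDKN1B and CDKN2C in every siSRSF2 library and above both in every WT library. CCNG2 lay above CDK6 and CCND3 in every siSRSF2 library and below both in every WT library. Merged exon length stands in for transcript length in this order, from 2586 bases for CDKN1C to 12260 bases for CDK6.

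**Figure D3:**
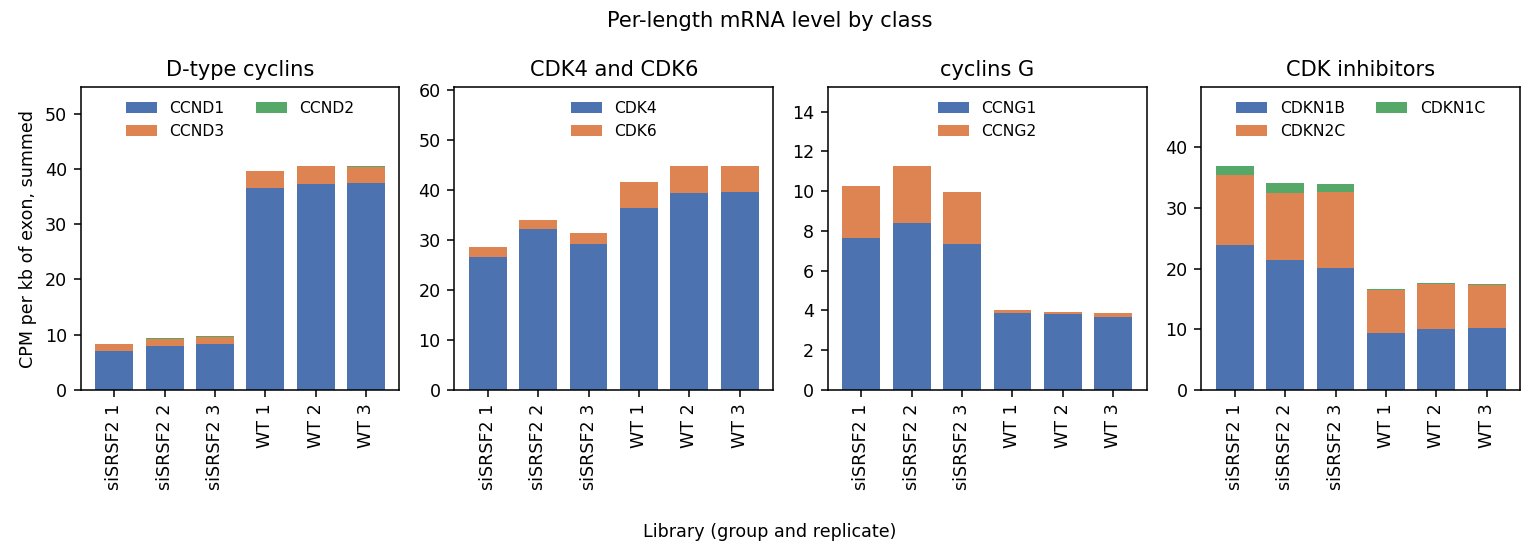
Summed CPM per kilobase of merged exon for each class of genes, with a bar per library, siSRSF2 libraries left of WT libraries, and colours for the genes. D-type cyclins average 9.09 CPM per kb in siSRSF2 and 40.2 in WT, and the 3 inhibitors among the 10 genes 35.0 in siSRSF2 and 17.3 in WT.

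Set side by side, the summed levels of the 3 inhibitors and of the D-type cyclins changed places. This sum leaves out CDKN1A, CDKN2A, CDKN2B and CDKN2D, so the crossing is shown for these 3 inhibitors only. Of those left out, CDKN2A had 70.3 ± 2.42 CPM in siSRSF2 and 75.7 ± 3.89 CPM in WT (not per length). The 3 inhibitors together held 37.0, 34.2 and 33.9 CPM per kb in siSRSF2 libraries, against 16.6, 17.7 and 17.5 CPM per kb in WT libraries, a 2.03-fold rise. In every siSRSF2 library this sum lay above that of the D-type cyclins (8.33 to 9.66 CPM per kb), and in every WT library below it (39.6 to 40.6 CPM per kb). For the leading gene of each of these sums, the log2 ratio of CCND1 to CDKN1B counts was -0.98, -0.65 and -0.50 in siSRSF2 libraries, against 2.74, 2.66 and 2.65 in WT libraries. The difference of -3.39 (SE 0.14) was a factor of 10.5, close to that of CCNG2 to CCNG1, and the groups did not overlap in any of the 7 ratios (exact permutation p = 0.1 for each, two-sided).

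**Figure D4:**
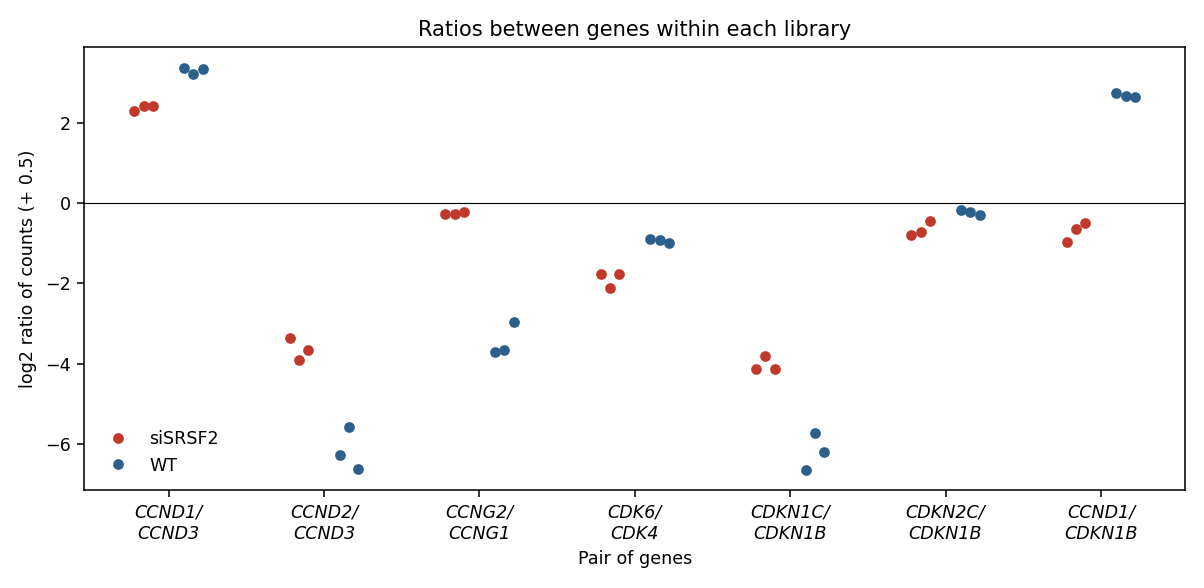
Log2 ratio of the counts (plus 0.5) of 7 pairs of genes within each library, with siSRSF2 libraries left of WT libraries. The ratio of CCND1 to CDKN1B is below 0 in the 3 siSRSF2 libraries and above 2 in the 3 WT libraries.

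Around these genes, 78 others of the G1 pathway and its neighbours were examined in 5 lists, of which 77 genes were tested. The lists too were chosen with earlier results of these data known, so their counts beside all genes are descriptions only. Together 22 rose, 37 fell and 18 did not pass, with a median log2 fold change of -0.12, against 0.02 over all genes tested. Of all genes tested, 30.1% rose and 29% fell. With scaling by library totals alone, 31 rose and 31 fell. That setting moved all genes upward as well, to 8560 higher and 5492 lower, from 7129 and 6862 in the main fit. List counts at that setting below stand beside the same shift. The RB axis list, which also holds the kinase inhibitor genes CDKN1A, CDKN2A, CDKN2B and CDKN2D, was mixed. Of its 21 genes, 10 rose, 7 fell and 4 did not pass (median 0.10). CDC25A, the phosphatase that activates CDK2, fell to 26.8 ± 1.74 CPM in siSRSF2, against 62.3 ± 1.84 CPM in WT (log2 fold change -1.21, edgeR adjusted p = 1.06e-15), and the repressive E2F6 fell as well (-0.95, edgeR adjusted p = 1.73e-11). TFDP2, a dimer partner of E2F proteins, rose to 30.1 ± 0.811 CPM in siSRSF2, against 13.3 ± 0.370 CPM in WT (1.17, edgeR adjusted p = 5.04e-14). RBL2, which encodes the RB relative p130 found with E2F in quiescent cells, rose to 38.3 ± 3.22 CPM in siSRSF2, against 20.1 ± 1.13 CPM in WT (0.93, edgeR adjusted p = 6.17e-12). Among the other kinase inhibitors, CDKN1A (0.74, edgeR adjusted p = 9.07e-08) and CDKN2D (1.28, 5.78e-07) rose, while CDKN2A (-0.11, edgeR adjusted p = 0.0772) and CDKN2B (0.10, edgeR adjusted p = 0.178) did not pass.

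Genes for the assembly and turnover of cyclin D, CDK4/6 and p27 fell in 14 of 20 cases and rose in none, where 29% of all genes tested fell and 30.1% rose. The median log2 fold change of the list was -0.31, with 6 genes short of the threshold. With scaling by library totals 2 rose and 11 fell, with a mean CPM of at least 1 as the filter 2 rose and 14 fell, and in a test against 1.2-fold 9 fell. The chaperone genes HSP90AA1 (-1.54, edgeR adjusted p = 4.18e-20) and HSP90AB1 (-0.58, 3.88e-11), whose products help to fold CDK4, fell. SKP2, the receptor of the ubiquitin ligase that marks p27 for degradation, fell to 30.9 ± 2.49 CPM in siSRSF2, against 50.9 ± 0.309 CPM in WT (-0.72, edgeR adjusted p = 6.9e-11). CUL1, the scaffold of that ligase, fell to 68.0 ± 0.317 CPM in siSRSF2, against 123 ± 3.69 CPM in WT (-0.85, edgeR adjusted p = 1.39e-14). Among genes of the list with a part in the turnover of D-type cyclins, GSK3B (-0.39, edgeR adjusted p = 2.23e-07) and CUL4A (-0.37, 2.59e-08) fell. FBXO31 fell as well (-0.33, edgeR adjusted p = 0.00385), although its libraries overlapped between the groups. DDB1 did not pass (0.07, edgeR adjusted p = 0.178). AMBRA1 (0.0021) and FBXO4 (-0.0036) did not pass either (edgeR adjusted p = 0.981 and 0.971).

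Of 12 transcription regulators known to act on these genes, 2 rose and 7 fell, where 30.1% of all genes tested rose and 29% fell. The other 3 did not pass, and the list's median log2 fold change was -0.38. With scaling by library totals 5 rose and 7 fell. FOXO4, a member of the forkhead family that activates CDKN1B and CCNG2 in other systems, rose to 45.1 ± 3.03 CPM in siSRSF2, against 11.6 ± 1.46 CPM in WT (log2 fold change 1.95, edgeR adjusted p = 3.71e-16). Its relatives FOXO1 (0.47, edgeR adjusted p = 0.0623) and FOXO3 (0.05, 0.516) did not pass. FOSL1 (-2.27) and ETV5 (-4.54), factors induced by ERK signalling, and MYC (-0.62), an activator of CDK4 and CCND2, fell (edgeR adjusted p = 1.87e-16, 1.62e-15 and 1.48e-12). ETV5 had 6, 8 and 10 reads in siSRSF2 libraries, against 257, 249 and 288 in WT libraries, and only 1 siSRSF2 library reached the level of the low-count filter. It was therefore tested through the WT libraries, where it is high, and its fall says nothing about the list. The 7 falls and the median of this list, and the 37 falls of the lists together, still include it.

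The list of cyclin G partners and relatives had 4 rises and 6 falls among 14 tested genes (median log2 fold change -0.07), but 1 rise and 5 falls in a test against 1.2-fold. In the main fit 30.1% of all genes tested rose and 29% fell. The catalytic subunit genes of protein phosphatase PP2A, to which G-type cyclins bind, fell, namely PPP2CA (-0.86, edgeR adjusted p = 1.56e-14) and PPP2CB (-0.82, 6.42e-11), as did the regulatory subunit gene PPP2R2A (-0.50, 3.04e-10). Another regulatory subunit gene, PPP2R5B, rose to 6.16 ± 0.274 CPM in siSRSF2, against 1.42 ± 0.216 CPM in WT (2.11, edgeR adjusted p = 7.6e-12). Of 10 S to M phase cyclins and kinases, 6 rose, 3 fell and CCNF did not pass (median 0.20). The cyclin genes CCNB1 (-0.60) and CCNA2 (-0.60) fell, and WEE1 (1.09), a kinase that restrains CDK1, and CDC25C (1.02), a phosphatase that activates it, rose (edgeR adjusted p = 7.93e-12, 1e-10, 1.07e-14 and 1.49e-11).

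**Figure D5:**
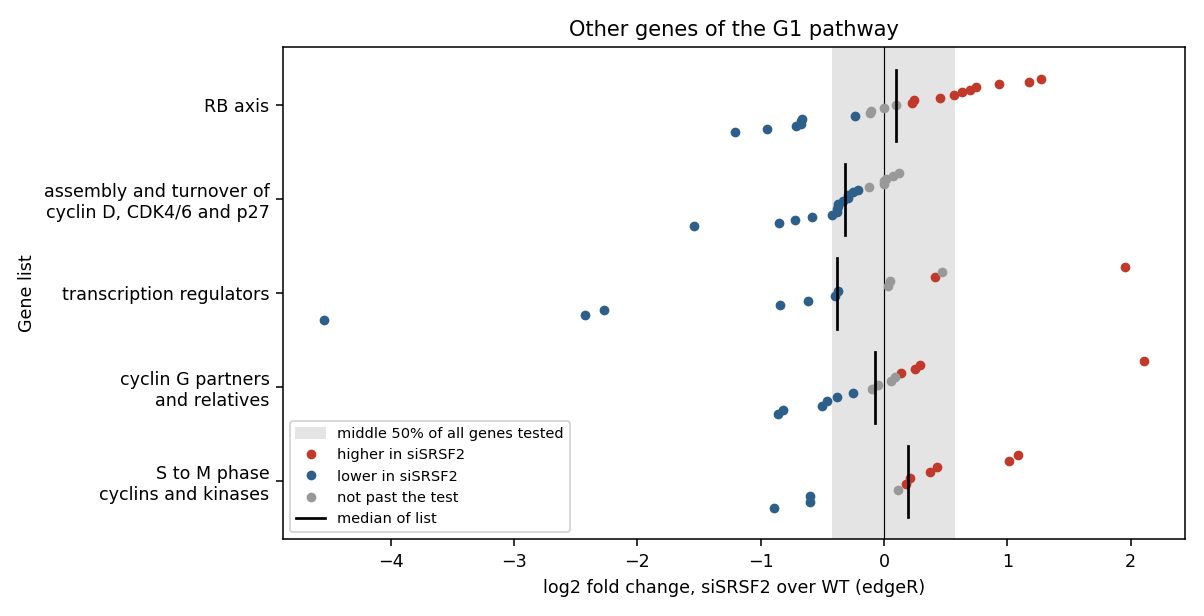
Log2 fold change (siSRSF2 over WT, edgeR) of the 77 tested genes of 5 lists around the G1 genes, coloured by call, with a line at each list's median and a band over the middle 50% of all genes tested (-0.42 to 0.57). The assembly and turnover list has 14 falls and no rise (11 and 2 with scaling by library totals), and the RB axis 10 rises and 7 falls. Over all genes tested, 30.1% rose and 29% fell.

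Profiles over the 6 libraries were compared by Euclidean distance of log2 CPM relative to the WT mean. The 11587 candidates were tested genes that averaged at least 5 CPM over all 6 libraries. Most like CCND1 were ODC1, RRP9 and IL7R. ODC1, the ornithine decarboxylase gene, lay at a distance of 0.153 and had 56.4 ± 4.36 CPM in siSRSF2 and 269.8 ± 2.70 CPM in WT (log2 fold change -2.26). RRP9 lay at 0.168 (-2.18) and IL7R at 0.205 (-2.26). IL7R had 3.23 ± 0.308 CPM in siSRSF2 and 15.5 ± 0.748 CPM in WT. Nearest to CCNG2 were LINC00887 at 0.415 (log2 fold change 4.37), PPFIA4 at 0.495 (4.17) and ZNF467 at 0.570 (3.98). PPFIA4 had 59.2 ± 4.04 CPM in siSRSF2 and 3.28 ± 0.531 CPM in WT. LINC00887 had 16.3 ± 1.34 CPM in siSRSF2 and 0.789 ± 0.244 CPM in WT, and ZNF467 9.94 ± 0.617 and 0.625 ± 0.191 CPM. IL7R, LINC00887, PPFIA4 and ZNF467 thus reached the mean of 5 CPM only through the group where they were high. With 6 libraries in 2 groups the distance depends largely on the size of the group difference.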

How the data were processed

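RNA of 6 AGS libraries was extracted with TRI Reagent, and libraries were made with the SMARTER mRNA-Seq kit; both steps are per the labels. The authors deposited unnormalized counts for 56303 gene entries in 1 table. HISAT2 2.0.5 and featureCounts 1.5.0-p3 are named, per the submitters' processing notes, with the mouse build mm10, whereas the table holds human gene names. Gene bounds of 9 of the 10 genes equal those of GENCODE release 29 (GRCh38), all but CDKN1C. Strand use in counting, not given in the sources used here, remains unknown. Reads carry no molecular identifiers, so the 3-read floor covers counting error only.

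With edgeR 4.0.16 (R 4.3.3), filterByExpr (minimum count 10) kept 23689 genes, libraries were scaled by TMM, and siSRSF2 was set against WT by the robust quasi-likelihood F test. The model held no term besides group, and p-values were adjusted by Benjamini-Hochberg over all genes tested (threshold 0.05). The SE of a log2 fold change is its absolute value divided by the square root of F. The SE of a difference in log2 ratio is the square root of the summed group variances, each divided by 3. The pipeline was run on simulated counts in which few genes were changed and all genes had a common dispersion. Here 59.1% of the genes tested were called, so that run does not give error rates for these data. Ratios used counts plus 0.5. Every pair of replicates differed by more than sampling noise (chi-square per gene 3.83 to 8.75). The genes and lists were chosen with earlier results of these data known. All 10 genes, up to 4 genes per list with the smallest p, and the 3 nearest profiles to CCND1 and CCNG2 were named by rule. CCNF, CDKN1A, CDKN2A, CDKN2B, CDKN2D, AMBRA1, CUL4A, DDB1, FBXO4, FBXO31, FOXO1, FOXO3 and GSK3B were named after their values were seen. Alternatives were DESeq2 1.42.0, median-of-ratios (RLE) factors, scaling by library totals, no low-count filter, a mean CPM of at least 1, a non-robust fit, a replicate block, a test against 1.2-fold and each library left out. Sequences are from RefSeq promoter tables.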

Additional observations from a re-analysis of the deposited data

How the results depend on the processing

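The 9 genes other than CCND2 kept direction and call in all 14 alternatives each (126 of 126 values), among them each library left out. CCND2 lost its call in 7 of 13, including DESeq2 (log2 fold change 1.11, adjusted p = 0.115), no low-count filter (edgeR adjusted p = 0.0705) and a test against 1.2-fold (0.0502), and was not tested at a mean CPM of at least 1. Its log2 fold change ranged from 0.89 to 1.55 over the libraries left out, and the depth of 8 to 20 reads limits it. Same-numbered libraries showed no clear shared deviation (correlations 0.043, -0.077 and -0.055 across 17149 genes). With 3 libraries in each group, this cannot show whether cultures were handled in pairs. With the replicate block, 6 genes were higher and 4 lower, as without it, and over all genes 6927 were higher and 6770 lower. Shares of D-type cyclin reads, not per length, were 82.8% for CCND1, 1.27% for CCND2 and 15.9% for CCND3 in siSRSF2 and 90.8%, 0.130% and 9.11% in WT. With a test against 1.2-fold, 9 genes of the assembly and turnover list were lower, in place of 14.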
